A study of Mus musculus with 8 samples.

Results

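Polypyrimidine tract binding (PTB) proteins and the regulators of neural exons that work with or against them were followed as 9 genes picked by name: Ptbp1, Ptbp2 and Ptbp3, Nova1 and Nova2, Srrm3 and Srrm4, and Raver1 and Raver2. All 9 were found among the 46635 genes of the deposited table, and 8 were among the 14044 genes that were tested. Srrm3 was too low to be tested. They are a named set, and no value of these libraries enters the rule that picks them. The set was nevertheless chosen with earlier results of these data known.

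PTB proteins bind pyrimidine-rich stretches of RNA and in most tissues keep neural exons out of the messenger RNA. In developing neurons Ptbp1 gives way to its paralog Ptbp2, and proteins such as SRRM4 and the NOVA pair bring neural exons in. RAVER1 and RAVER2 are co-repressors that bind PTB proteins, so the 4 families act on overlapping sets of exons. The gut wall holds both kinds of cell, since muscle and connective tissue surround the enteric nervous system.

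Wild-type mice gave the RNA, taken from small intestinal mesenchyme, with 4 libraries of the fetal stage E17.5 and 4 of postnatal day 14 (P14). An age label gives the fetal stage as E17, while the protocol gives E17.5, the stage used here. Intestines of both ages had been treated with EDTA to strip the epithelium, and no other treatment or allele is named for either group. The study asked whether alternative splicing takes part in lengthening of the gut, and the table gives 1 value per gene, which cannot show the use of single exons. The labels give neither the strain nor whether a replicate is 1 animal or a pool, and the p-values therefore describe the spread among these libraries alone, which may be technical.

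Values are FPKM, reads scaled by gene length and by library size, so levels of different genes can be set side by side. Between 1.67e+07 and 1.95e+07 reads per library were assigned to genes at E17.5 and between 1.77e+07 and 1.85e+07 at P14. Smooth muscle and fibroblast markers, which define the labelled tissue, were detected in all libraries, with Tagln alone among them low, at 0.222 to 1.19 FPKM. The summed FPKM of 12 smooth muscle markers was 5041 to 5525 at E17.5, 2941 in P14 replicate 1 and 8052 to 11301 in P14 replicates 2 to 4. The 8 fibroblast markers summed to 2636 to 2966, 968 and 2625 to 2692 in the same order. The 15 epithelial markers summed to 37.7 to 60.1 at E17.5, to 6346 in P14 replicate 1 and to 154 to 867 in the other P14 libraries, and none of them was at 0 in any library. P14 replicate 1 therefore stood apart, so the tests of the 9 genes and the counts of each gene list are given with it and without it. Each other gene named below as having risen or fallen with all 8 libraries passed in the same direction without it. Its FPKM were also computed on an effective library size of 0.78 times its assigned reads, against 1.02 to 1.06 times in the other 7 libraries.

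The 3 PTB genes share a 34-base exon, shown here because its skipping is known in Ptbp1 and Ptbp2. Its length is not a multiple of 3, so leaving it out shifts the reading frame, and PTBP1 is known to cause that skipping in Ptbp2 and in its own transcript. In the GENCODE M21 annotation of GRCm38 it is exon 10 of 14 in Ptbp1 (chr10:79862014-79862047, plus strand), exon 10 of 14 in Ptbp2 (chr3:119724612-119724645, minus strand) and exon 11 of 15 in Ptbp3 (chr4:59485339-59485372, minus strand). The sequences run 5′ to 3′ along the transcript, with capitals at the 19 bases that are identical in all 3 genes:
Ptbp1: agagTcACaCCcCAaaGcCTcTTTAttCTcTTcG
Ptbp2: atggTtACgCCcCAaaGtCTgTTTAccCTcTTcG
Ptbp3: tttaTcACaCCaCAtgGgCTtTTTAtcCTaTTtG
Ptbp1 and Ptbp2 are identical at 26 of 34 bases, Ptbp1 and Ptbp3 at 22, and Ptbp2 and Ptbp3 at 21. The annotation holds 2 Ptbp1 transcripts without the exon and 2 such Ptbp2 transcripts, all 4 of them marked as targets of nonsense-mediated decay, and no Ptbp3 transcript that skips it. The deposited values sum over all forms of a gene, so inclusion of these exons was not measured.

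Ptbp1, which represses neural exons in most cell types, was the highest of the 9 genes. It is on chromosome 10 (79690266 to 79700269, plus strand, GRCm39 as in the table, gene ID 19205). Its FPKM was 154, 146, 137 and 139 in E17.5 replicates 1 to 4 and 108, 92.5, 95.1 and 96.0 in P14 replicates 1 to 4. Every P14 library was below every E17.5 library. The mean went from 144 ± 7.38 (SD, n = 4) to 97.9 ± 6.86 (SD, n = 4), and without P14 replicate 1 the P14 mean was 94.6 ± 1.80 (SD, n = 3). Across all tested genes, 97.2% had a mean lower than that of Ptbp1. On the log2(FPKM + 1) scale, on which all fold changes are given as P14 against E17.5, Ptbp1 fell by 0.55 (SE 0.0941, limma with Benjamini-Hochberg adjusted p = 0.00572). It fell by 0.60 without P14 replicate 1 (SE 0.0696, limma adjusted p = 0.000275). In bulk RNA, fewer cells of a type and less RNA per cell cannot be told apart, here or in the results that follow.

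The place of P14 replicate 1 among the P14 libraries depended on the scale for Ptbp1. Rescaled to TPM, in which every library has the same sum, its value was 214 against 253, 272 and 266 in replicates 2 to 4, the lowest of the 4, while in FPKM it was the highest. The E17.5 libraries were at 438, 432, 412 and 401 TPM, so the ages were apart on both scales.

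Ptbp2, the neural paralog, is on chromosome 3 (119512390 to 119578296, minus strand, gene ID 56195). Its FPKM was 20.7, 21.2, 23.8 and 28.1 in the E17.5 libraries and 16.1, 38.8, 34.2 and 38.6 in P14 replicates 1 to 4. P14 replicates 2 to 4 were above every E17.5 library, and P14 replicate 1 was below all of them, at 0.685 times the E17.5 mean. With all 8 libraries the log2 fold change was 0.36 (SE 0.277, limma adjusted p = 0.367). Without P14 replicate 1, Ptbp2 rose by 0.65 (SE 0.112, limma adjusted p = 0.00188), from 23.5 ± 3.38 (SD, n = 4) to 37.2 ± 2.59 (SD, n = 3), which is 1.59-fold. It was the only one of the 8 genes in that fit that rose. Summed enteric neuron markers were also higher there, at 470 to 533 FPKM at E17.5 and 625 to 819 in P14 replicates 2 to 4, and 241 in P14 replicate 1. Per 1000 FPKM of these markers, Ptbp2 was at 38.8 to 57.8 at E17.5 and 47.4 to 66.7 at P14, with overlapping ages. Summed smooth muscle markers had the same pattern, at 5041 to 5525 FPKM at E17.5, 8052 to 11301 in P14 replicates 2 to 4 and 2941 in P14 replicate 1. How much of the Ptbp2 RNA came from neurons, muscle or other cells was not tested.

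Ptbp3, a paralog first described in blood-forming cells, is on chromosome 4 (59471868 to 59549376, minus strand, gene ID 230257). Its FPKM was 29.5, 32.3, 36.7 and 40.5 at E17.5 and 78.1, 19.7, 24 and 22.6 in P14 replicates 1 to 4. P14 replicate 1 was above every other library, at 3.53 times the mean of the other P14 libraries (2.51 times in TPM), and P14 replicates 2 to 4 were below every E17.5 library. The log2 fold change was -0.18 with all 8 libraries (SE 0.403, limma adjusted p = 0.771). It fell by 0.62 without P14 replicate 1 (SE 0.119, limma adjusted p = 0.00317), from 34.7 ± 4.86 (SD, n = 4) to 22.1 ± 2.22 (SD, n = 3). The 4 P14 libraries had the same order in Ptbp3 as in the summed epithelial markers, which were 6346, 867, 305 and 154 FPKM in replicates 1, 3, 4 and 2. The part of epithelial RNA in the Ptbp3 values was not tested.

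**Figure D1:**
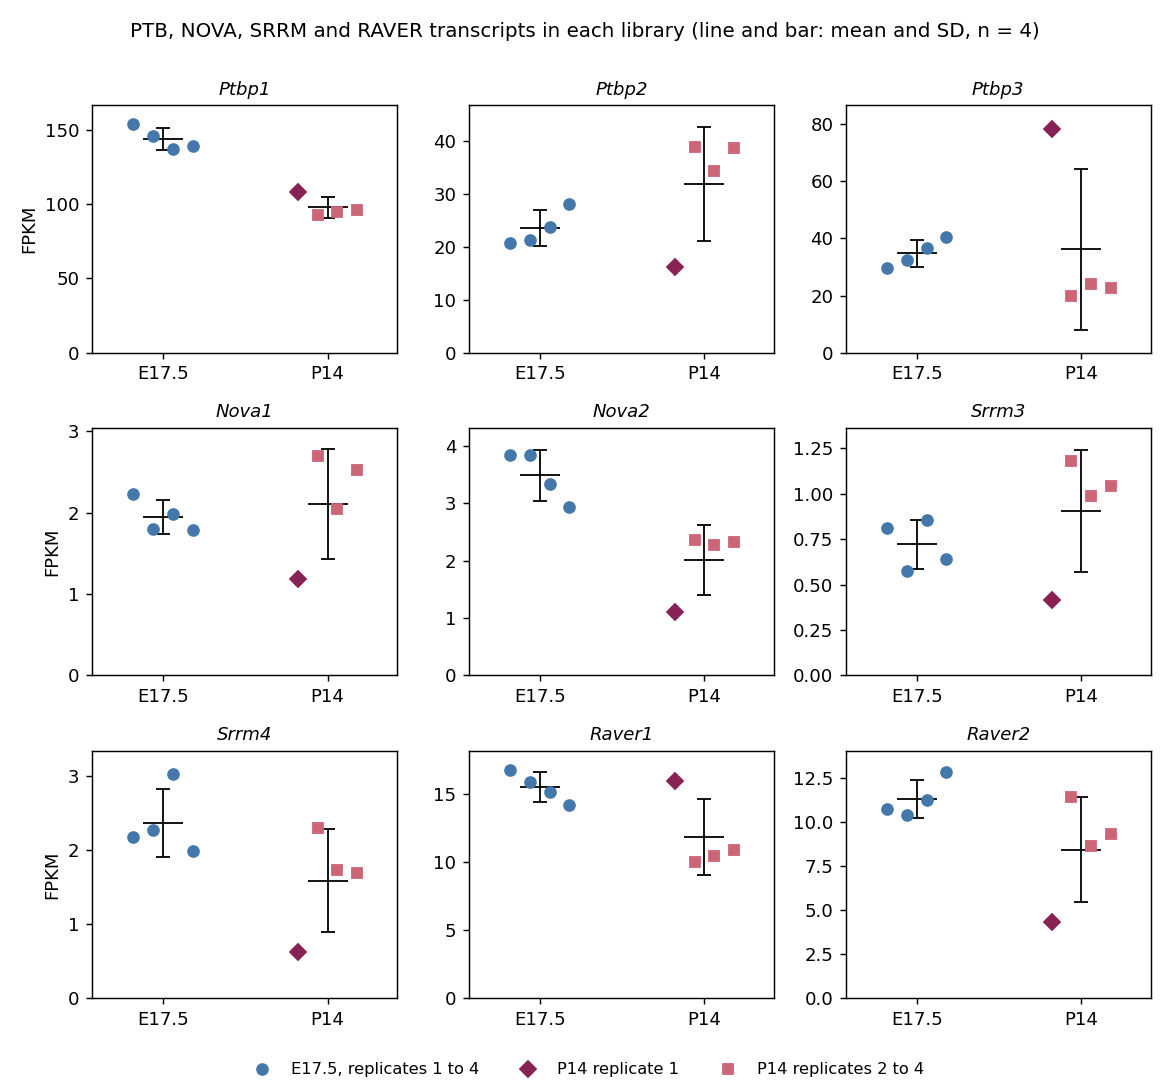
FPKM of the 9 genes in each library (points; vertical axes start at 0 and differ between panels), with E17.5 on the left and P14 on the right of each panel and a line and bar for the mean and SD of each age (n = 4). P14 replicate 1, drawn as a diamond, is above all other libraries in Ptbp3 at 78.1 and below all of them in Ptbp2, both NOVA genes, both SRRM genes and Raver2.

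Set against each other within a library, the 3 PTB genes differed in make-up between the ages, and these shares do not depend on how a library was scaled. Ptbp1 made up 75.4%, 73.2%, 69.4% and 67.0% of the summed PTB FPKM in the E17.5 libraries and 53.4%, 61.3%, 62.0% and 61.1% in P14 replicates 1 to 4. The ages did not overlap in this share, P14 replicate 1 included. Ptbp2 held 10.2% to 13.5% at E17.5, 22.3% to 25.7% in P14 replicates 2 to 4 and 7.95% in P14 replicate 1. For Ptbp3 the share was 14.5% to 19.5% at E17.5, 13% to 15.7% in P14 replicates 2 to 4 and 38.6% in P14 replicate 1. The lower Ptbp1 share thus went with a higher Ptbp2 share in 3 P14 libraries and with a higher Ptbp3 share in the other one. The sum of the 3 genes was 198 to 208 FPKM at E17.5, 202 in P14 replicate 1 and 151 to 157 in the rest.

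Ptbp1 exceeded Ptbp2 in every library, by ratios of 7.41, 6.86, 5.76 and 4.95 at E17.5 and of 6.72, 2.38, 2.78 and 2.49 in P14 replicates 1 to 4. The ratio in P14 replicate 1 lay within the E17.5 range, and the other 3 lay below it. Ptbp3 was above Ptbp2 in all E17.5 libraries and in P14 replicate 1, and below it in P14 replicates 2 to 4. These ratios and shares are descriptions, with no test.

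**Figure D2:**
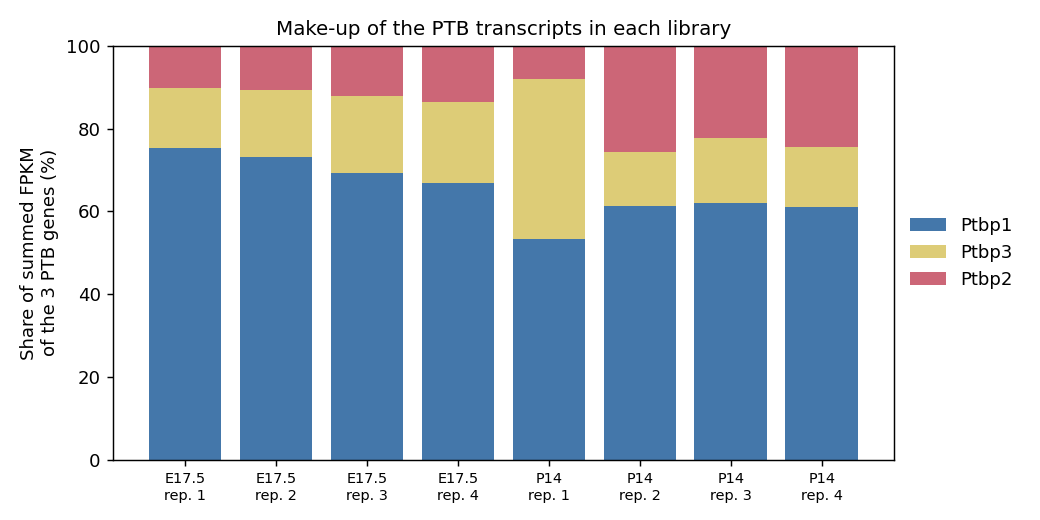
Share of each PTB gene in the summed FPKM of Ptbp1, Ptbp2 and Ptbp3 (vertical axis, percent), 1 stacked bar per library. The Ptbp1 part is 67.0% to 75.4% in the E17.5 bars and 53.4% to 62.0% in the P14 bars, and the bar of P14 replicate 1 has the largest Ptbp3 part, 38.6%.

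Nova1 and Nova2 encode KH-domain proteins that set the splicing of synaptic transcripts in neurons, and both were low, at 1.1 to 3.84 FPKM. Nova2, on chromosome 7 (18659319 to 18699244, plus strand, gene ID 384569), had an FPKM of 3.84, 3.84, 3.34 and 2.93 at E17.5 and of 1.1, 2.36, 2.28 and 2.32 in P14 replicates 1 to 4. The ages did not overlap. Nova2 fell by 0.60 on the log2 scale with all 8 libraries (SE 0.178, limma adjusted p = 0.043), and by 0.43 without P14 replicate 1 (SE 0.101, limma adjusted p = 0.00824). With P14 replicate 1 kept, the call was close to the threshold. Leaving out any 1 other library gave limma adjusted p-values of 0.0524 to 0.109. With all 8 libraries, TPM gave 0.0613 and the reads behind the values, tested with voom, gave 0.072. Quantile normalization of all 8 libraries kept the call (limma adjusted p = 0.0192). Without P14 replicate 1 the call held in TPM (0.00468), after quantile normalization (0.00578) and on the reads (0.00341).

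Nova1, on chromosome 12 (46744678 to 46866143, minus strand, gene ID 664883), had 2.23, 1.80, 1.98 and 1.78 FPKM at E17.5, and 1.18, 2.69, 2.04 and 2.52 in P14 replicates 1 to 4. P14 replicate 1 was the lowest library, and P14 replicate 3 lay within the E17.5 range. The log2 fold change was 0.05 (SE 0.176, limma adjusted p = 0.853), and 0.21 without P14 replicate 1 (SE 0.109, limma adjusted p = 0.14). With all 8 libraries its sign turned in TPM, to -0.096, so no direction is given for it.

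The balance of the NOVA pair differed between the ages in every library. Nova2 over Nova1 was 1.72, 2.14, 1.69 and 1.64 at E17.5 and 0.930, 0.875, 1.12 and 0.918 in P14 replicates 1 to 4. Mean ratios were 1.80 ± 0.228 (SD, n = 4) and 0.961 ± 0.109 (SD, n = 4). Here P14 replicate 1 lay within the range of the other P14 libraries.

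Srrm4 and Srrm3 encode related SR-repeat proteins that bring very short exons into the transcripts of neurons, and SRRM3 is also known from endocrine cells. Srrm4 is on chromosome 5 (116577325 to 116730620, minus strand, gene ID 68955) and had 2.17, 2.27, 3.03 and 1.98 FPKM at E17.5, and 0.624, 2.29, 1.73 and 1.69 in P14 replicates 1 to 4. P14 replicates 3 and 4 were below the E17.5 range, replicate 2 was inside it, and replicate 1 was the lowest of the 8. The log2 fold change was -0.42 (SE 0.222, limma adjusted p = 0.201), and -0.21 without P14 replicate 1 (SE 0.134, limma adjusted p = 0.224). Between 72 and 473 reads per library stood behind these values.

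Srrm3, also on chromosome 5 (135835693 to 135903627, plus strand, gene ID 58212), was the lowest of the 9, with 49 to 182 reads per library. Its FPKM was 0.809, 0.573, 0.857 and 0.643 at E17.5 and 0.414, 1.18, 0.987 and 1.04 in P14 replicates 1 to 4. P14 replicates 2 to 4 were above all E17.5 libraries, and P14 replicate 1 was below them. Srrm3 reached 1 FPKM in P14 replicates 2 and 4 only, short of the 4 libraries required for testing. It entered only the fit without that filter, in which 8.16% of 31574 genes passed. There Srrm3 had a log2 fold change of 0.13 (SE 0.155, limma adjusted p = 0.592). Without the filter and without P14 replicate 1, 22.5% of 30985 genes passed, and the value for Srrm3 was 0.27 (SE 0.1, limma adjusted p = 0.102). Enteroendocrine markers summed to 24.3 to 33.0 FPKM at E17.5, 95.7 to 103 in P14 replicates 2 to 4 and 156 in P14 replicate 1, the library with the lowest Srrm3. The markers did not move alike. In P14 replicate 1, Sct, named after its values were seen, was at 66.3 FPKM, against 2.21 to 7.0 in the other P14 libraries. Scg2 was lower there, at 21.0 against 48.1 to 61.4. The part of enteroendocrine cells in the Srrm3 values was not tested. Of those 16 markers, 8 were at 0 in at least 1 library, and Pax4, Neurog3 and Gip were at 0 in all E17.5 libraries.

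As in the NOVA pair, the ratio within the SRRM pair separated the ages with P14 replicate 1 included. Srrm4 over Srrm3 was 2.68, 3.97, 3.54 and 3.09 at E17.5 and 1.51, 1.94, 1.75 and 1.62 in P14 replicates 1 to 4. The mean ratio was 3.32 ± 0.558 (SD, n = 4) against 1.71 ± 0.185 (SD, n = 4). Both ratios rest on low genes, and their difference was not tested.

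**Figure D3:**
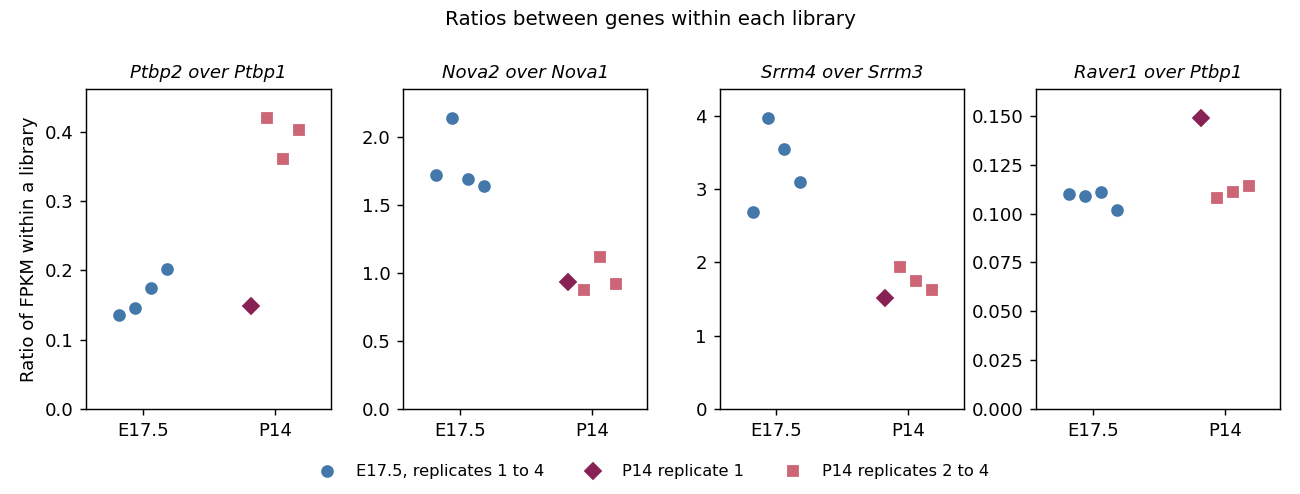
Ratio of the FPKM of one gene to that of another within each library (vertical axes, starting at 0), for Ptbp2 over Ptbp1, Nova2 over Nova1, Srrm4 over Srrm3 and Raver1 over Ptbp1, with 1 point per library and P14 replicate 1 as a diamond. Nova2 over Nova1 is 1.64 to 2.14 at E17.5 and 0.875 to 1.12 at P14, and Srrm4 over Srrm3 is 2.68 to 3.97 and 1.51 to 1.94, with P14 replicate 1 among the other P14 points in Nova2 over Nova1 and slightly below them in Srrm4 over Srrm3.

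These 4 genes are known mainly from neurons, so their values were set beside 20 markers of enteric neurons. The markers summed to 533, 470, 513 and 486 FPKM at E17.5 and to 241, 819, 625 and 678 in P14 replicates 1 to 4, and none was at 0 in any library. P14 replicate 1 was low in the sum, as it was in all 4 genes. Per 1000 FPKM of neuron markers, Nova1 was at 3.67 to 4.18 at E17.5 and 3.26 to 4.92 at P14, with overlapping ages. Nova2 was at 6.03 to 8.16 per 1000 at E17.5 and 2.88 to 4.57 at P14, with no overlap. Srrm4 likewise went from 4.06 to 5.91 per 1000 down to 2.49 to 2.80, and Srrm3 overlapped, at 1.22 to 1.67 and 1.45 to 1.72. The sum weighs the highest markers most, and the markers did not move alike. Without P14 replicate 1, 11 of 19 tested markers rose and 1 fell. Uchl1 rose by 0.63 (limma adjusted p = 0.00252), while Elavl4, named after its value was seen, was at 0.03 (limma adjusted p = 0.88). Values per 1000 thus depend on which markers are summed and do not give an amount per neuron. How much of each gene's RNA came from neurons was not tested.

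Raver1, a nuclear and cytoskeletal partner of PTB proteins, is on chromosome 9 (20985454 to 21003295, minus strand, gene ID 71766). The E17.5 libraries had 16.8, 15.9, 15.2 and 14.2 FPKM, against 16, 10.0, 10.5 and 10.9 in P14 replicates 1 to 4. P14 replicate 1 lay within the E17.5 range, and the other 3 P14 libraries lay below it. With all 8 libraries the log2 fold change was -0.38 (SE 0.151, limma adjusted p = 0.0996). Raver1 fell by 0.53 without P14 replicate 1 (SE 0.0774, limma adjusted p = 0.000886), from 15.5 ± 1.1 (SD, n = 4) to 10.5 ± 0.452 (SD, n = 3). Raver1 was called with all 8 libraries on the other scales: in TPM (-0.59, limma adjusted p = 0.00789), where the E17.5 libraries were at 41.1 to 48.1 and the P14 libraries at 27.3 to 31.8, after quantile normalization (0.0213) and on the reads (0.0182).

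Raver1 and Ptbp1 kept a near constant ratio over 7 libraries. Raver1 over Ptbp1 was 0.11, 0.109, 0.111 and 0.102 at E17.5 and 0.108, 0.111 and 0.114 in P14 replicates 2 to 4. P14 replicate 1 was apart at 0.149. These are values from the same libraries and were not tested.

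Raver2, the second co-repressor, is on chromosome 4 (100926235 to 101009567, plus strand, gene ID 242570). Its FPKM was 10.7, 10.4, 11.2 and 12.8 at E17.5 and 4.32, 11.4, 8.63 and 9.30 in P14 replicates 1 to 4. P14 replicate 2 was inside the E17.5 range and the other P14 libraries were below it. The log2 fold change was -0.44 (SE 0.246, limma adjusted p = 0.218), and -0.19 without P14 replicate 1 (SE 0.11, limma adjusted p = 0.181). Raver1 over Raver2 was 1.11 to 1.58 at E17.5 and 0.878 to 1.22 in P14 replicates 2 to 4, against 3.71 in P14 replicate 1, where Raver1 was high and Raver2 low.

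Of the 8 tested genes, 2 fell with all libraries, Ptbp1 and Nova2, where 15% of all tested genes fell, and 0 rose, where 9.72% of all tested genes did. The count of rises in limma was 0 at an unadjusted p under 0.05 as well, and 0 with voom. Across all tested genes in that fit, 5498 had an unadjusted limma p under 0.05. Without P14 replicate 1, 4 of the 8 fell, adding Ptbp3 and Raver1, where 26.9% of all tested genes fell, and 1 rose, Ptbp2, where 22.6% did. Counts this small, beside shares this size, do not set these genes apart from the rest. The groups did not overlap for 2 of all 9 genes with P14 lower and for 0 with P14 higher, against 20.4% and 15.6% of tested genes. Without P14 replicate 1 they did not overlap for 4 with P14 lower and 2 with P14 higher, Ptbp2 and Srrm3, against 29.7% and 24.8%.

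**Figure D4:**
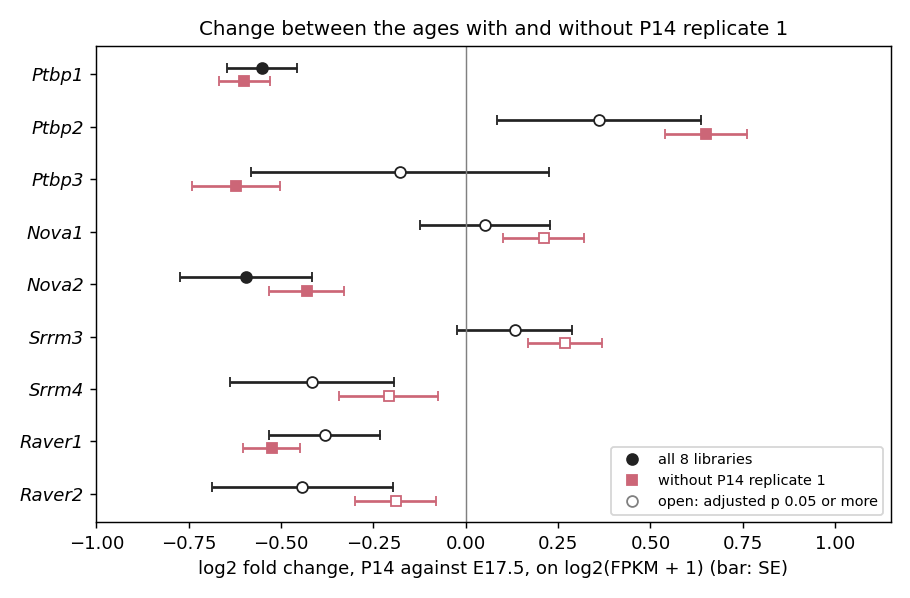
Log2 fold change of each gene, P14 against E17.5, on log2(FPKM + 1) (horizontal axis, bars show the SE), from limma with all 8 libraries (circles) and without P14 replicate 1 (squares), filled where the adjusted p is under 0.05. Srrm3 comes from the fits without the filter; leaving out P14 replicate 1 moves Ptbp2 from 0.36 to 0.65 and Ptbp3 from -0.18 to -0.62.

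In order of level at E17.5 the genes were Ptbp1, Ptbp3, Ptbp2, Raver1, Raver2, Nova2, Srrm4, Nova1 and Srrm3. Among neighbours in that order, Nova2 and Srrm4 overlapped over the E17.5 libraries, as did Srrm4 and Nova1, and the others did not. In P14 replicates 2 to 4 Ptbp2 came before Ptbp3 and Nova1 before Nova2, and there Raver1 overlapped with Raver2, Nova1 with Nova2 and Nova2 with Srrm4. P14 replicate 1 had the E17.5 order of the PTB genes, and its Ptbp2 and Raver1 were nearly level, at 16.1 and 16 FPKM.

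P14 replicate 1 lay outside the range of the other P14 libraries in all 9 genes, and in different directions. Set over the mean of P14 replicates 2 to 4, its FPKM was 3.53 times for Ptbp3, 1.53 for Raver1 and 1.14 for Ptbp1. In TPM the ratio was 2.51 for Ptbp3, 1.09 for Raver1 and 0.812 for Ptbp1. In FPKM the other 6 genes ran from 0.328 for Srrm4 to 0.490 for Nova1. The same ratio was 14.4 for the summed epithelial markers, 0.300 for smooth muscle, 0.363 for fibroblasts, 0.340 for enteric neurons and 0.272 for 6 skeletal muscle markers. It was 0.895 for 10 glia markers, of which Erbb3 gave 47.3 of 74.5 FPKM in P14 replicate 1 against 6.06 to 10.1 FPKM in the other P14 libraries. The ratio was 0.677 for 14 genes of dividing cells, 1.55 for enteroendocrine cells and 1.61 for B, T and plasma cells. Of the 6 low genes, Srrm4 lay within the range of smooth muscle, fibroblasts and enteric neurons (0.300 to 0.363). The rest lay above those lists and below dividing cells, from 0.387 for Srrm3 to 0.490 for Nova1. Ptbp3 lay between the immune and epithelial lists, and Ptbp1 and Raver1 lay between glia and enteroendocrine cells, all in FPKM. The lists were not rescaled to TPM. Whether Ptbp1 was above or below the mean of the other P14 libraries depended on the scale. The part of cell make-up in these ratios was not tested.

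**Figure D5:**
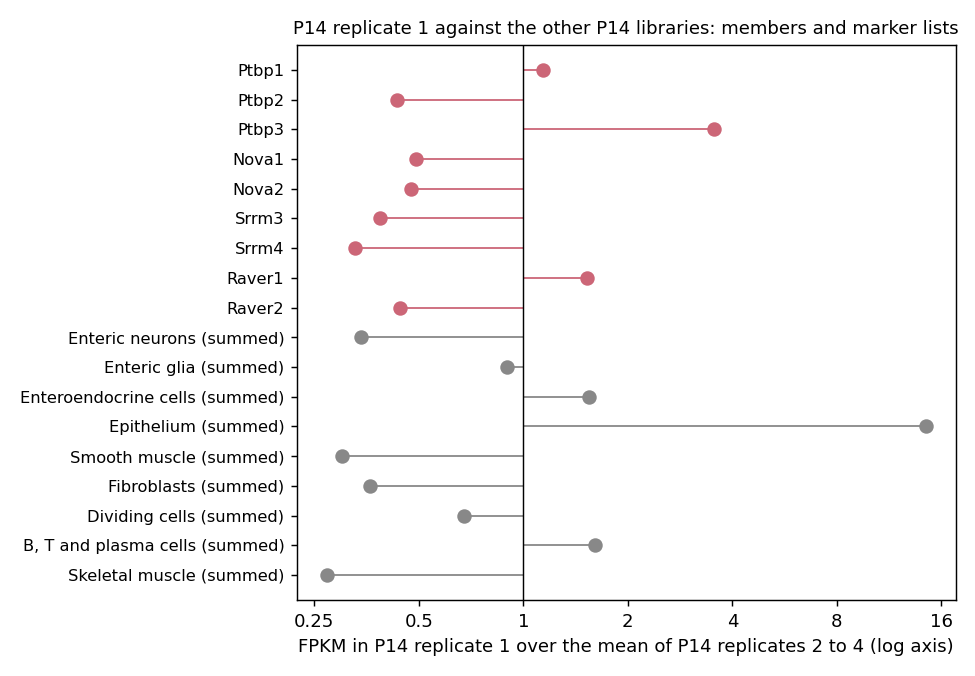
FPKM in P14 replicate 1 divided by the mean of P14 replicates 2 to 4 (horizontal log axis, line at 1), for the 9 genes and for the summed markers of 9 cell types. The points run from 0.272 for skeletal muscle to 14.4 for epithelium, with Ptbp3 at 3.53 and 6 of the 9 genes between 0.328 and 0.490.

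Of 13 tested partners of the PTB proteins and of the neural exon regulators, 5 fell and 0 rose in limma (0 rises also at an unadjusted p under 0.05 and with voom), with a median log2 fold change of -0.31 against 0.0022 over all tested genes, of which 15% fell and 9.72% rose. With P14 replicate 1 left out, 8 fell and 1 rose, beside 26.9% and 22.6% of all tested genes. These shares are the background for each list below. Fubp1, which binds single-stranded DNA and RNA, fell by 0.75 (SE 0.101, limma adjusted p = 0.00239), from 28.2 ± 1.68 to 16.4 ± 1.55 FPKM (SD, n = 4 each). Hnrnpll, a regulator of lymphocyte exons, fell by 0.66, from 38.4 ± 3.91 to 23.9 ± 1.61 (limma adjusted p = 0.00492). Rnps1, a splicing activator of the exon junction complex, fell by 0.84, from 34.5 ± 5.17 to 19.8 ± 8.51, close to the threshold (limma adjusted p = 0.0499). Its pseudogene Rnps1-ps, named after its values were seen, went from 24.3 to 35.2 FPKM (0.46, limma adjusted p = 0.177). How reads were shared between Rnps1 and this copy was not tested, so the fall of Rnps1 is uncertain. The highest partner, Hnrnpk, was at 215 ± 6.11 and 175 ± 16.6 FPKM (limma adjusted p = 0.0565, and 0.0246 without P14 replicate 1). Actn1, an actin cross-linker that binds RAVER1, was the 1 partner that rose without P14 replicate 1 (0.43, limma adjusted p = 0.00572) and is named after its value was seen.

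Of 20 tested RNA-binding proteins that act on neural exons, 4 fell and 1 rose, with a median of -0.26, near the shares over all tested genes (15% and 9.72%). Without P14 replicate 1, 7 fell and 4 rose, with a median of -0.016, beside 26.9% and 22.6%. Qk, a regulator of glial and muscle exons, fell by 0.86, from 34 ± 6.35 to 18.9 ± 5.95 FPKM (limma adjusted p = 0.0471). Tia1, which binds U-rich RNA, fell by 0.67, from 21.1 ± 3.13 to 13 ± 2.68 (limma adjusted p = 0.026). Khdrbs1, which encodes SAM68, fell by 0.56, from 17.2 ± 0.32 to 11.4 ± 0.226 (limma adjusted p = 0.00272). The 1 that rose was Mbnl1, the muscleblind factor of muscle exons, by 0.35 (limma adjusted p = 0.0483). That call was lost in TPM and with voom, where 0 of the list rose, and the gene is named after its value was seen. Pcbp1, the highest of the list, was at 169 ± 22.2 and 144 ± 29.0 FPKM (limma adjusted p = 0.286), and fell without P14 replicate 1 (0.0177). The list held 24 genes, and 4 were too low to test.

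REST represses neural genes such as Srrm4 outside neurons, and of 12 genes for REST and its partners 6 fell and 0 rose in limma (1 rise at an unadjusted p under 0.05, 0 with voom), with a median of -0.31, where 15% of all tested genes fell and 9.72% rose. Leaving out P14 replicate 1, 7 fell and 1 rose, where 26.9% and 22.6% did. Rcor2, a co-repressor, fell by 1.05, from 6.66 ± 1.67 to 2.70 ± 0.775 FPKM (SE 0.201, limma adjusted p = 0.00916). Rcor1 fell by 0.66 (limma adjusted p = 0.00294) and the histone deacetylase Hdac1 by 0.65 (limma adjusted p = 0.0424). Ctdsp2, a phosphatase of the complex and its highest gene, was at 93 ± 10.5 and 87.0 ± 7.86 FPKM (limma adjusted p = 0.596). Rest itself had 9.73, 10.6, 10.9 and 11 FPKM at E17.5, against 10.0, 7.64, 7.79 and 8.14 in P14 replicates 1 to 4, and is named after its values were seen. It missed the threshold with all 8 libraries (-0.31, limma adjusted p = 0.0754) and fell without P14 replicate 1 (-0.39, limma adjusted p = 0.00306).

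Transcripts whose amount PTB proteins are known to set through a poison or neural exon were few, and without Ptbp2 and Ptbp3 there were 6 tested, of which 1 fell and 0 rose in limma (0 rises at an unadjusted p under 0.05 and with voom), with a median of 0.098. Flna, which encodes an actin cross-linker abundant in smooth muscle, was the highest of them, at 358 ± 20.1 and 550 ± 250 with all 8 libraries (limma adjusted p = 0.439). It rose by 0.89 without P14 replicate 1, to 668 ± 94.6 (limma adjusted p = 0.000322). In that fit 2 of the 6 rose and 1 fell, with a median of 0.07 against -0.025 over all tested genes. The median turned to -0.09 in TPM, a scale that moves the median of all tested genes to -0.18.

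Cell type markers differed between the ages as well, and their part in the values of the 9 genes was not tested. Among all tested genes 9.72% rose and 15% fell, and 22.6% and 26.9% without P14 replicate 1, which is the background for these counts. Of 19 tested neuron markers 1 rose and 1 fell, and without P14 replicate 1, 11 rose and 1 fell. Nos1, which marks nitrergic neurons, rose by 0.95 (limma adjusted p = 0.0495), a call lost in TPM and with voom, where 0 neuron markers rose. Nefm, a neurofilament gene, fell by 0.89 (0.0261), and Uchl1 was the highest at 89.3 ± 9.28 and 113 ± 54.4 FPKM (0.827). Of 14 genes of dividing cells 11 fell, with a median of -0.94, and 13 fell without P14 replicate 1. Ccnb1, Top2a and Bub1 fell, with log2 fold changes of -1.59, -1.45 and -1.26 (limma adjusted p = 0.00295, 0.00288 and 0.00582), and Pcna, the highest, was at 138 ± 14.7 and 113 ± 5.58 FPKM (0.0846, and 0.0459 without P14 replicate 1). Dividing-cell genes summed to 537 to 601 FPKM at E17.5, 238 in P14 replicate 1 and 350 to 353 in the rest. They were lower at P14, as Ptbp1 was, but the P14 libraries were ordered differently in FPKM. P14 replicate 1 was the lowest of them for dividing-cell genes and the highest for Ptbp1, at 108 against 92.5 to 96.0. In TPM it was the lowest for Ptbp1, at 214.

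Of 13 tested epithelial markers 11 rose, also without P14 replicate 1 (3 with voom), led by Cdhr5, Epcam and Cldn7 at 6.01, 5.30 and 4.77 on the log2 scale (limma adjusted p = 0.0169, 0.0223 and 0.024). Smooth muscle gave 0 calls in limma among 11 genes with all 8 libraries (0 with voom), 3 rose at an unadjusted p under 0.05, and 10 rose without P14 replicate 1. Its highest gene, Actg2, was at 2658 ± 106 and 3315 ± 1550 FPKM (limma adjusted p = 0.814). Of 8 fibroblast markers 2 fell and 0 rose in limma (0 rises at an unadjusted p under 0.05 and with voom), with a median of -0.56, and without P14 replicate 1, 2 fell and 2 rose, with a median of -0.20. Those that fell with all libraries were Col6a1 by 1.12 and Pdgfra by 0.82 (limma adjusted p = 0.0314 and 0.0122), and Col3a1 was the highest at 713 ± 44.2 and 736 ± 278 FPKM. Without P14 replicate 1, Col3a1 and Dcn rose by 0.30 and 0.23 (limma adjusted p = 0.0125 and 0.0237), and Dcn is named after its value was seen. Among 6 tested glia markers 2 rose, 5 without P14 replicate 1 and 0 in TPM or with voom. S100b rose by 0.81 (limma adjusted p = 0.0411), and Fabp7 was the highest at 32.4 ± 2.45 and 23.3 ± 13.8 FPKM. Of 6 tested enteroendocrine markers 4 rose and 1 fell, and 5 rose and 1 fell without P14 replicate 1, with Chgb, Scg2 and Chga up by 1.97, 1.80 and 1.13 (limma adjusted p = 0.000616, 0.00568 and 0.00596). Among 5 tested markers of B, T and plasma cells 3 rose, as without P14 replicate 1, Cd79a, Jchain and Mzb1, by 3.72, 3.30 and 1.83 (limma adjusted p = 0.0202, 0.000624 and 0.00787). Of 3 tested skeletal muscle markers 1 rose, Acta1 by 1.45 (limma adjusted p = 0.0405), a call lost in TPM and with voom. With P14 replicate 1 left out, 2 rose and 1 fell, and Ckm was the highest at 20.1 ± 2.74 and 29.5 ± 14.5 FPKM.

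For the highest gene of each family, the 3 tested protein-coding genes with the nearest profile were found by the root mean square distance between log2(FPKM + 1) profiles over the 8 libraries, each centred on its own mean. Nearest to Ptbp1 were Rpl7, Rpl3 and Rack1, all of the ribosome, at 0.0416, 0.0492 and 0.0494, and ribosomal protein genes have many near-identical copies, so their values are uncertain. Rpl7 was at 1110 to 1210 FPKM at E17.5 and 703 to 883 at P14, with P14 replicate 1 the highest of the P14 libraries, as in Ptbp1. Nearest to Nova2 were Arhgef2, a guanine exchange factor, Cdca4 and Plxna3, a semaphorin receptor, at 0.0442, 0.0559 and 0.0571. Srrm4 was nearest to Fam78b, Enox1 and Kcnip3 at 0.0683, 0.0792 and 0.0819, and all 3 had their lowest value in P14 replicate 1. Raver1 was nearest to Snx27, Umps and Wwc2 at 0.0547, 0.0565 and 0.0578, each with P14 replicate 1 at or just above the E17.5 range.

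Ptbp1 and Raver1, which were both below the E17.5 range in P14 replicates 2 to 4, have promoters that share a motif and are shown for that reason. Nova2 and Ptbp3 were also below that range, and the Nova2 promoter does not hold the motif while Ptbp3 was not matched. RefSeq promoters (GRCm38.p6, 250 bases before to 50 after the start) matched 8 of the 9 genes. Ptbp1 at chr10:79854182-79854481 (plus strand) and Raver1 at chr9:21091950-21092249 (minus strand) follow 5′ to 3′ along the gene, with capitals at the YY1 core AAGATGGCG and at CCAAT, read on both strands:
Ptbp1: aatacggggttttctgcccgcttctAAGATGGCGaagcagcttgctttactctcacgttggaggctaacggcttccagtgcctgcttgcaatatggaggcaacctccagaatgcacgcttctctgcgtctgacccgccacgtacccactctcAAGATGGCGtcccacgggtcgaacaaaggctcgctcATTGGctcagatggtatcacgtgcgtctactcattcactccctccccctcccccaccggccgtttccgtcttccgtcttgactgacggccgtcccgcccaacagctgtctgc
Raver1: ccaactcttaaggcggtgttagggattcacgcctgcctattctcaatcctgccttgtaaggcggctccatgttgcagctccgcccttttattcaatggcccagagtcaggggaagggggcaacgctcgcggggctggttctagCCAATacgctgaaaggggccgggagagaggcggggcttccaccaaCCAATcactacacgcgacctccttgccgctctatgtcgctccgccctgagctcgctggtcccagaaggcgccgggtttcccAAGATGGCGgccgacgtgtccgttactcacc
The letters AAGATGGCG occur 2 times in the Ptbp1 window and 1 time in that of Raver1, in no other of the 8, and in 1.4% of 32851 promoters of the same length. CCAAT occurs in Ptbp1, Raver1 and Srrm3 and in 37.4% of promoters, the E-box CACGTG in Ptbp1 alone and in 7.15%, and the GC box GGGCGG in 5 of the 8 and in 35.7%. Each window of the pair holds 22 CpG, against a median of 7 over all promoters, while Raver2 and Ptbp2 hold 41 and 36, Srrm4 25, Nova2 17, Nova1 14 and Srrm3 5. Only exact letters were counted, and the Srrm4 and Nova1 windows hold strings that differ by 1 base from the letters of the YY1 core. The motifs were picked after these sequences had been seen, and a match describes letters and shows no binding.

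Some values are uncertain because the labels and notes do not say whether counting used strand. Of the 9 genes, 4 overlap a gene on the opposite strand: Ptbp1 overlaps Plppr3 (3.64 to 10.7 FPKM) over 3961 bases, Raver2 overlaps Jak1 (28.5 to 45.3 FPKM) over 397 bases, and Nova2 and Srrm4 overlap long non-coding genes of at most 0.369 FPKM. Without strand, reads in the overlap cannot be assigned to 1 of the genes. Counting any strand, 6 of the 9 genes overlap another gene. On the same strand, Raver1 overlaps Gm38431 (0 FPKM) over 17842 bases, which is its whole span. Also on the same strand, Nova1 overlaps Gm33869 (0.126 to 0.389 FPKM) over 7464 bases and Raver2 overlaps Gm35956 (0 to 0.0295 FPKM) over 20558 bases. Reads there can be ambiguous even where strand is used. PTB transcripts also resemble one another in sequence. How reads that match more than 1 gene were counted is not stated in the labels or notes either.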

How the data were processed

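Bulk RNA-seq of 4 E17.5 and 4 P14 libraries was deposited as a table of FPKM values, with gene length, position and biotype, for 46635 genes. The deposited FPKM were made by the authors with tools whose roles are not stated: per the submitters' processing notes, HISAT2, featureCounts, fastp, CASAVA and DESeq2 1.20.0, with the build GRCm39. Within a library, FPKM times gene length came in whole steps for 100% of values above 0 (tolerance 0.001 reads), which recovers the reads. Loci without a name, 302, took 0.183% to 0.246% of reads.

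Genes with an FPKM of at least 1 in at least 4 of 8 libraries were tested, 14044 in all, on log2(FPKM + 1), a scale that understates changes of low genes. The ages were compared by limma 3.58.1 with trend and robust moderation, run in R 4.3.3 with statmod 1.5.0. Tests were two-sided, p-values were adjusted by Benjamini-Hochberg over the tested genes, and calls are under 0.05. The script was tested on simulated data. Alternatives were a pseudocount of 0.1, no filter, TPM, quantile normalization, a replicate block, limma voom on the recovered reads and leaving out each library. The 9 genes and the gene lists were chosen with earlier results of these data known. From each list, up to 3 called genes with the largest change and the highest tested gene are named; others are marked as named after their values were seen. Of the genes this rule names, 2 are not reported here. The samples' groups came from their titles. Exons were read from GENCODE M21 and promoters from RefSeq, both on GRCm38, and no coordinate was converted between builds.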

Additional observations from a re-analysis of the deposited data

Results flagged for a closer look

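In 18 groups, each of the 9 genes at each age, the most distant library was set against the other 3 by Dixon's ratio, its gap to the nearest library over the whole range. The 95% critical value for 4 samples is 0.829, and chance passes it in about 1 of 20 groups. It was passed in 3 groups, each time by P14 replicate 1. Ptbp3 was at 78.1 FPKM there, far above the other P14 libraries (ratio 0.926). Nova2 was at 1.1 FPKM, far below them (ratio 0.940). Raver1 was at 16 FPKM, far above them (ratio 0.851), but in TPM it was at 31.8 against 27.3 to 30.2. FPKM of this library were computed on 0.78 times its assigned reads. The same library had summed epithelial markers of 6346 FPKM against 154 to 867 in the other P14 libraries, and the part of this in the 3 values was not tested.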

How the results depend on the processing

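Ptbp1 fell in all settings run. With all 8 libraries, 1365 genes rose and 2108 fell. The rises numbered 899 in TPM (with 2678 falls), 894 with voom on the reads and 695 with the replicate block, and the falls 1049 with the block. Leaving out 1 library at a time gave 617 to 3176 rises and 1118 to 3782 falls, the highest of both without P14 replicate 1. Among the 9 genes that range was 0 to 1 rises and 1 to 4 falls, the latter 1 without any library other than P14 replicate 1. A pseudocount of 0.1, no filter and the replicate block left 1 fall each, Ptbp1, since Nova2 was lost (limma adjusted p = 0.0534, 0.0873 and 0.106). Settings chosen after seeing the data left out P14 replicate 1 together with another choice. They gave 1 rise and 4 falls among the 9 genes each time, and over all genes 2741 rises and 4387 falls in TPM, 3027 and 4048 after quantile normalization, 3227 and 3795 with voom, and 3591 and 3388 without the filter. Ptbp3 turned to 0.0225 without P14 replicate 2, in a range of -0.62 to 0.0225 over the omissions. Nova1 turned to -0.0961 in TPM, -0.0408 with voom, -0.0418 without P14 replicate 2 and -0.0189 without P14 replicate 4, with -0.0418 to 0.21 over the omissions alone. The cause was not tested. The labels do not say whether equal replicate numbers pair libraries across the ages. Deviations from the group means correlated at -0.033, 0.009, -0.064 and -0.049 across genes for numbers 1 to 4. These values showed no sign of pairing, but with 4 libraries per age they cannot exclude a shared litter or batch. No called gene of the lists changed sign in TPM, after quantile normalization or with voom, though voom called fewer: 2 partners and 3 neural-exon proteins fell. Nova and Srrm genes rest on 49 to 654 reads per library, which limits their precision, and intervals between replicates cover these libraries only.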
